A study of Mus musculus with 18 samples.

Results

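The genes that copy the genome in S phase were followed here in bone marrow-derived macrophages (BMDMs) with and without prolyl endopeptidase (PREP). They are 52 listed genes of DNA replication and S phase, taken from the count table by symbol, and all 52 were among its 16314 genes. All 52 also passed the filter on low counts that left 12021 genes for testing. BMDMs are macrophages grown from marrow progenitors in culture. The mice were *Prep*-/- knockouts and their *Prep*+/- littermates on a C57BL6/J background, so the controls carried a single functional copy of *Prep* and no wild-type group was compared. Femoral marrow cells of every group were grown for 7 days in 50 ng/ml M-CSF, the growth factor that macrophages depend on. The cells were then left unstimulated (M0), or given for 24 h either 50 ng/ml lipopolysaccharide (LPS, M1) or 20 ng/ml IL-4 with 20 ng/ml IL-13 (M2). Each of the 6 groups held 3 RNA-seq libraries described as biological replicates, so that p-values measure the spread between these libraries, and neither the sex of the mice nor the animal behind each library was stated. In the text, Prep+/- and Prep-/- name the libraries of each genotype, and values of a group are listed in the order of its replicate numbers. A log2 difference is followed by ± its standard error (SE).

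DNA replication begins when the origin recognition complex, CDC6 and CDT1 load the MCM helicase onto DNA, which licenses an origin. Kinases and loading factors then convert the loaded helicase into a moving fork, where primase and the DNA polymerases copy both strands, the PCNA clamp holds the polymerases in place, and FEN1 and DNA ligase I join the lagging-strand fragments. Most of these genes are transcribed under E2F transcription factors as cells enter S phase. In macrophage cultures M-CSF drives division, and LPS is known to halt it.

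The stretches before the start of these genes were read for letters that E2F factors are known to bind. RefSeq gave promoter windows for 43 of the 52 genes, and in the 250 bases before the start the letters TTTCGCGC, TTTGGCGC, TTTCCCGC or TTTGCCGC stood on either strand in 10 genes (23.3%). Among the other tested genes with a window 3.86% held them, and among all genes with a window 2.16% did. The 10 were *Mcm5*, *Mcm6*, *Mcm7*, *Orc1*, *Cdc6*, *Gins3*, *Pola1*, *Rfc3*, *Dnmt1* and *Uhrf1*. The CCAAT box was in 58.1% of the genes against 40.8% of other tested and 37.5% of all genes, and the letters TTTGAA of the cell cycle homology region (CHR) were in 18.6% against 12.9% and 18.3%. These are counts of letters, not of bound sites. The part of the window outside annotated exons is shown for the 4 genes in which the E2F-type letters lay there. A link between these letters and the knockout difference was not tested. The sequences come from RefSeq, were located in GRCm39 by exact match, and are written 5′ to 3′ along the gene with the matching letters in capitals. *Mcm6* lay at chr1:128287517-128287692 on the minus strand, *Mcm5* at chr8:75835887-75836136 on the plus strand, *Pola1* at chrX:92675814-92676011 on the minus strand and *Cdc6* at chr11:98798808-98798976 on the plus strand, the last within an intron of longer annotated transcripts.
Mcm6: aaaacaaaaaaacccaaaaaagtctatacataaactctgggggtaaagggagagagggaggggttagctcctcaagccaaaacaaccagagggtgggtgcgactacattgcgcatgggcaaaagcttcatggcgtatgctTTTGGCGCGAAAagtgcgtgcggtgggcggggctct
Mcm5: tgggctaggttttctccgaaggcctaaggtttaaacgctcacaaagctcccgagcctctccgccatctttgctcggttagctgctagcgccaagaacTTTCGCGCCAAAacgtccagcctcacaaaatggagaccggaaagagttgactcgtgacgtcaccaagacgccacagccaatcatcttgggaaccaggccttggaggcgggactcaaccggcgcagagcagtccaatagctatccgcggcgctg
Pola1: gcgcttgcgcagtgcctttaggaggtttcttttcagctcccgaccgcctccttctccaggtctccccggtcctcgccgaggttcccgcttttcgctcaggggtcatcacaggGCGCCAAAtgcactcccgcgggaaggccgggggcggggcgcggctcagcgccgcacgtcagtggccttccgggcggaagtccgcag
Cdc6: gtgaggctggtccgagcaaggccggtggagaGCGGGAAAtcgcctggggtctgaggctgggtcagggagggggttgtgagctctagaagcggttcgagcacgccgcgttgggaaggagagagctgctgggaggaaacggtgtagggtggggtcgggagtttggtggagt

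In *Mcm6* and *Mcm5* the capitals span a pair of overlapping matches on opposite strands, TTTGGCGC with TTTCGCGC. *Pola1* held TTTGGCGC and *Cdc6* TTTCCCGC, each on the opposite strand of the gene and therefore printed as its reverse complement.

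Library totals were 19068237 to 22598279 reads counted to genes, and levels are given as CPM, the count scaled by the TMM-adjusted library total, with factors of 0.818 to 1.20. Pairs of replicates of a group correlated at 0.966 to 0.993 across genes on the log2 scale. *Prep* itself was at 26.0 to 42.5 CPM in the 9 Prep+/- libraries and at 1.48 to 3.22 CPM in the 9 Prep-/- libraries, so every library matched the genotype in its label. The 9 macrophage markers were all detected, and their summed level was 10450 to 48670 CPM over the groups.

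Loss of *Prep* went with lower levels of nearly the whole replication set in unstimulated macrophages, and the difference was smaller after LPS. A gene was called where edgeR's quasi-likelihood test gave an adjusted p under 0.05 over all tested genes and the fold change exceeded 1.5. In M0, 50 of the 52 genes were called lower in Prep-/- and 0 higher, where 17.2% of all tested genes were called lower and 15.4% higher. In M1, 35 were called lower and 0 higher, against 10.2% and 12.3% of all tested genes. In M2, 45 were called lower and 0 higher, against 9.82% and 6.37%. With glmTreat, which tests against the fold of 1.5 itself, 15 were lower in M1. DESeq2 called 0 members higher in each state, and at an unadjusted p under 0.05 the edgeR fit had 0 higher. The median log2 difference of the 52 genes, Prep-/- minus Prep+/-, was -1.97 for M0, -0.94 for M1 and -1.47 for M2, while the median of all tested genes was 0.02, 0.04 and 0.03. In bulk RNA, fewer cells that express these genes and less of each transcript per cell cannot be told apart.

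Summed over the 52 genes, the level was 4519, 4867 and 4809 CPM in the Prep+/- M0 libraries and 999.8, 1265 and 1589 CPM in the Prep-/- M0 libraries. After LPS it was 1998, 2038 and 1932 CPM in Prep+/- and 1308, 1334 and 1351 CPM in Prep-/-. After IL-4 with IL-13 it was 3839, 3811 and 3703 CPM in Prep+/- and 1375, 1499 and 2095 CPM in Prep-/-. The genotypes did not overlap in any state, and the Prep+/- M1 libraries stood below the other Prep+/- libraries and above all Prep-/- libraries but number 3 of M2. The means of the Prep-/- groups were 1285 ± 295 CPM in M0, 1331 ± 21.7 CPM in M1 and 1656 ± 385 CPM in M2 (SD, n = 3), where the Prep+/- groups ran from 1989 ± 53.5 CPM in M1 to 4732 ± 186 CPM in M0. *Pcna* alone gave 136, 312 and 378 CPM of the Prep-/- means in M0, M1 and M2, so these sums depend in part on that gene. The mean over the 52 genes of log2(CPM + 0.5) weights them equally and put Prep-/- at 4.09 ± 0.37 in M0, 3.88 ± 0.17 in M1 and 4.23 ± 0.32 in M2, against 5.998 ± 0.062, 4.77 ± 0.03 and 5.68 ± 0.03 in Prep+/- (SD, n = 3). In each state the Prep-/- library numbered 1 had the lowest mean of its group, and the Prep-/- M2 library numbered 3 had the highest summed level of any Prep-/- library, 652 CPM of it *Pcna*. Without that library 46 members were called lower in M2.

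**Figure D1:**
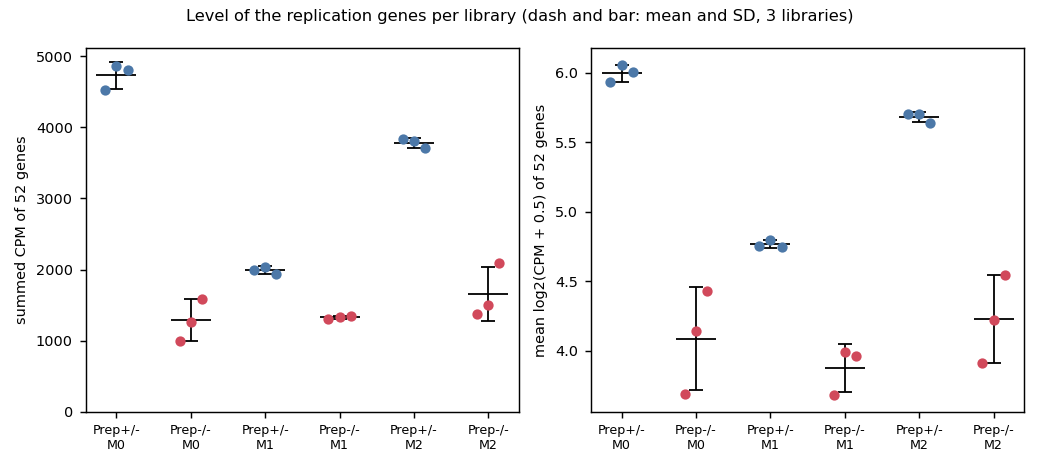
Level of the 52 replication genes in each library, as summed CPM (left, from 0) and as the mean of log2(CPM + 0.5) (right). Blue points are Prep+/- and red points Prep-/- libraries, with the dash and bar giving mean and SD of 3 libraries, and every Prep-/- library lies below the Prep+/- libraries of its state.

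All Prep-/- libraries lay below all Prep+/- libraries for 51 of the 52 genes in M0, for 42 in M1 and for 49 in M2. The same held for 27.1%, 27.1% and 20.9% of all tested genes. The gene that overlapped in M0 was *Rfc2*, and those in M2 were *Orc2*, *Pcna* and *Dut*. The 10 in M1 were *Dbf4*, *Gins3*, *Gins4*, *Pold3*, *Pcna*, *Rfc1*, *Rfc2*, *Rfc3*, *Dnmt1* and *Chaf1b*.

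**Figure D2:**
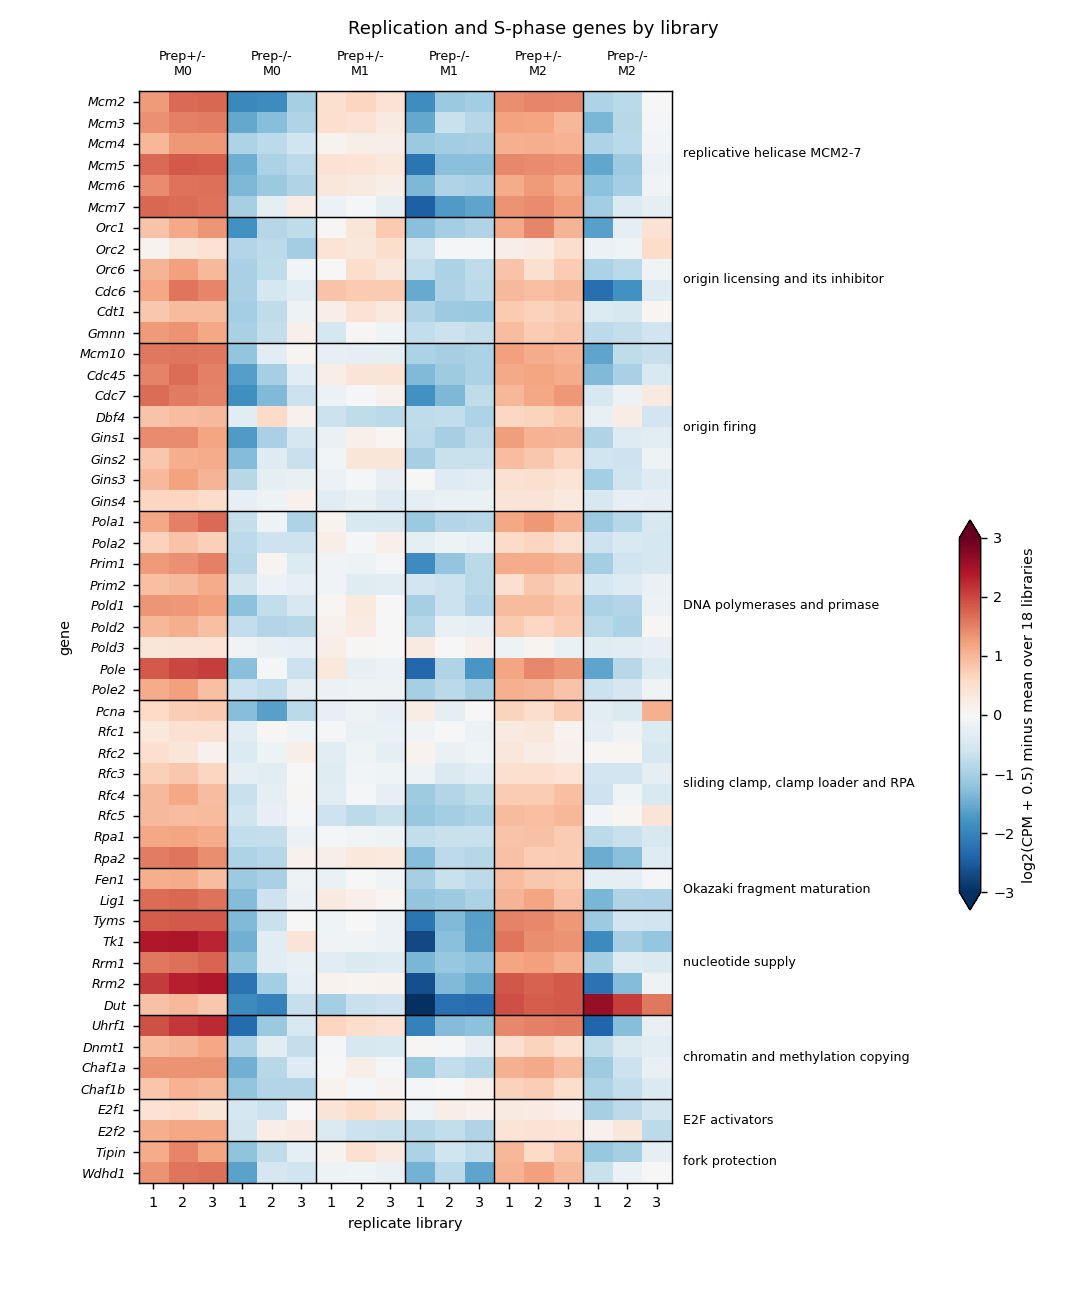
Each row is a gene, grouped by role, and each column a library, with colour giving log2(CPM + 0.5) minus the mean of the gene over the 18 libraries. The Prep+/- M0 and M2 columns are high for nearly every row, and the Prep-/- columns are low for most rows. *Dut* stands out as high in M2 in both genotypes, and *Pcna* is highest in the Prep-/- M2 library numbered 3.

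**Figure D3:**
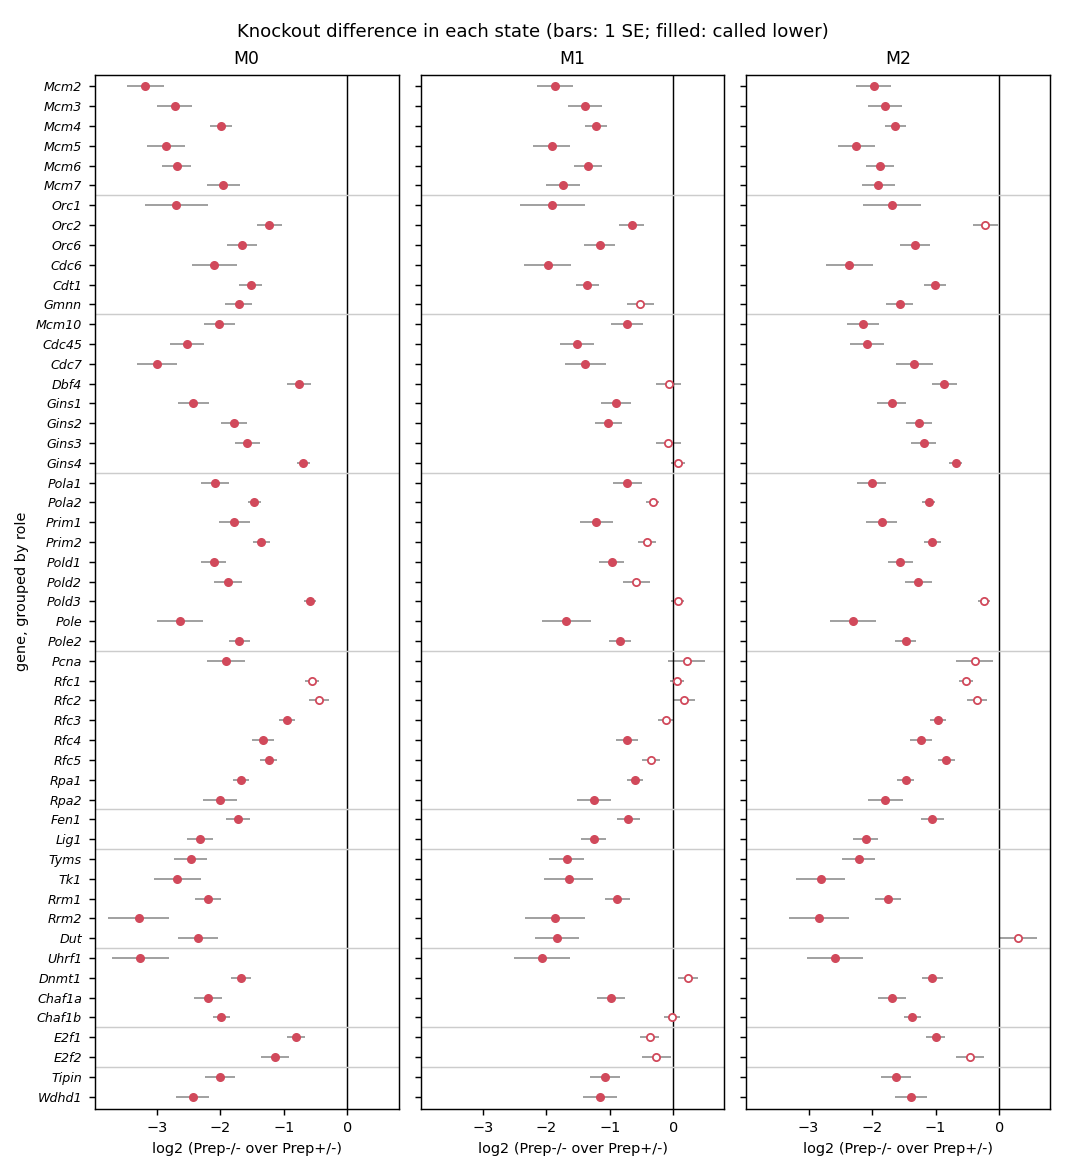
Log2 difference of each gene, Prep-/- over Prep+/-, in M0, M1 and M2, with bars of 1 SE, and filled points for genes called lower. In M0 the points run from -3.29 to -0.45, and in M1 they lie closer to 0, with 17 of the 52 open.

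Markers of other cells also differed between genotypes, though only in some lists and states. The summed level of 7 granulocyte and myeloid precursor markers was 12.1 to 16.1 CPM in Prep+/- and 3.18 to 4.03 CPM in Prep-/- in M0, 1.08 to 2.98 against 0.865 to 1.04 CPM in M1, and 6.60 to 7.20 against 1.51 to 1.92 CPM in M2. In Prep+/- M0 most of it was *Cd34*, an adhesion protein of progenitor cells, at 10.1 to 15.3 CPM against 0.996 to 1.98 CPM in Prep-/- M0, while the granule genes *Mpo*, *Elane*, *Prtn3* and *Ctsg* were each at 1.23 CPM or less in every library. *Cd34* was also most of the Prep+/- M2 sum, at 5.71 to 5.89 CPM against 0.402 to 0.700 CPM in Prep-/- M2. At very low levels *Ms4a3* went the other way in M0, with 0.0395 to 0.0456 CPM in Prep+/- and 0.167 to 0.759 CPM in Prep-/-. The remaining markers of this list overlapped between genotypes in M0. The B cell and T cell lists, reduced to 4 and 2 genes in the count table, were at 3.01 to 4.83 and 0.750 to 0.962 CPM in Prep+/- M0 against 8.66 to 11.5 and 7.84 to 29.6 CPM in Prep-/- M0, nearly all of it *Cd79b* and *Cd4*. Erythroid markers (7), mostly *Epor*, summed to 0.671 to 1.28 CPM in Prep+/- M0 and 2.04 to 3.52 CPM in Prep-/- M0. Stromal markers (5) summed to 12.5 to 15.8 against 0.738 to 17.5 CPM there. No marker of any list was at 0 in all libraries, but *Cd3d*, *Cd79a* and *Ms4a1* were at 0.168 CPM or less throughout. Erythroid sums overlapped between genotypes in M1 (0.112 to 0.646 against 0.254 to 0.572 CPM) and M2 (0.892 to 1.15 against 0.383 to 1.31 CPM). B cell sums overlapped in M2 (1.605 to 2.81 against 1.01 to 4.45 CPM) and not in M1. T cell sums overlapped in no state. Stromal sums overlapped in M0 and M2 and not in M1. The macrophage markers summed to 19320 to 22750 CPM in Prep+/- and 30840 to 48670 CPM in Prep-/- in M0, and to 46440 to 47890 against 31630 to 37570 CPM in M1 and 10450 to 12590 against 14370 to 20010 CPM in M2. Most of the macrophage sum was *Lyz2* in every library. In M1 *Lyz2* was at 34620, 36630 and 34400 CPM in Prep+/- and 20390, 26200 and 24760 CPM in Prep-/-. *Cd14* was also lower in every Prep-/- M1 library, while *Mertk* and *Cd68* were higher in all of them. Of the 9 macrophage markers, 1 was called higher in Prep-/- M1 cells and 1 lower. For M0 the calls were 6 higher with 0 lower, and for M2 they were 2 higher with 0 lower. The part of any of these lists in the replication result was not tested.

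The MCM2-7 helicase unwinds the parental duplex, and all 6 of its subunits were called lower in every state, with median log2 differences of -2.70 in M0, -1.57 in M1 and -1.89 in M2. *Mcm6*, with the highest mean CPM of the complex, was at 233, 272 and 275 CPM in Prep+/- and 34.3, 40.4 and 46.4 CPM in Prep-/- in M0. In M1 it was at 110.4, 105 and 98.7 CPM in Prep+/- and 33.9, 46.2 and 44.0 CPM in Prep-/-, and in M2 at 190.3, 211 and 189 CPM in Prep+/- and 36.7, 43.2 and 81.0 CPM in Prep-/-. The groups stood clear of each other in all 3 states, with the Prep-/- M2 library numbered 3 well above the other Prep-/- values. Its log2 difference was -2.69 ± 0.23 for M0, -1.34 ± 0.22 for M1 and -1.88 ± 0.22 for M2 (SE), with adjusted p of 4.71e-07, 0.00038 and 2.74e-05. *Mcm2* had the largest fall of the complex, 9.08-fold in M0. It read 58.0, 77.8 and 79.3 CPM in Prep+/- and 5.83, 6.11 and 11.8 CPM in Prep-/- in M0, 33.1, 37.4 and 32.3 CPM in Prep+/- and 6.18, 10.7 and 11.3 CPM in Prep-/- in M1, and 63.8, 66.8 and 65.0 CPM in Prep+/- and 12.3, 13.4 and 23.9 CPM in Prep-/- in M2. No Prep-/- library reached a Prep+/- library of its state, and the log2 differences were -3.18 ± 0.29 for M0, -1.86 ± 0.28 for M1 and -1.98 ± 0.28 for M2 (adjusted p = 9.71e-07, 0.000242 and 0.000103).

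*Mcm3* was at 146, 164 and 166 CPM in Prep+/- and 19.2, 23.1 and 30.1 CPM in Prep-/- in M0, at 80.5, 76.6 and 68.8 CPM in Prep+/- and 19.3, 35.5 and 31.0 CPM in Prep-/- in M1, and at 131, 130.1 and 114 CPM in Prep+/- and 21.4, 31.7 and 54.7 CPM in Prep-/- in M2. *Mcm4* was at 85.6, 106 and 107 CPM in Prep+/- and 22.3, 24.5 and 28.1 CPM in Prep-/- in M0, at 45.8, 48.2 and 49.2 CPM in Prep+/- and 19.6, 20.7 and 21.2 CPM in Prep-/- in M1, and at 90.3, 91.2 and 88.8 CPM in Prep+/- and 22.2, 24.2 and 40.7 CPM in Prep-/- in M2. Both showed the same order, highest in Prep+/- M0 and M2, intermediate in Prep+/- M1 and lowest in the Prep-/- groups. Their log2 differences were -2.71 and -1.99 for M0, -1.40 and -1.22 for M1, and -1.80 and -1.63 for M2. *Mcm5* and *Mcm7* fell by 2.86 and 1.95 on the log2 scale in M0. *Mcm7* changed least between states, with -1.74 in M1 and -1.90 in M2. It overlaps *Cops6* and *Ap4m1* on the opposite strand. Processed pseudogenes match 72.8% of the *Mcm7* transcript at 97.7% identity and 36.2% of the *Mcm4* transcript at 91.1% identity. Counts of these genes are less certain if reads were shared, more so for *Mcm7*.

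Of the 6 licensing genes, all were called lower in M0, 5 in M1 and 5 in M2. CDT1 and CDC6 load the helicase, ORC1, ORC2 and ORC6 are subunits of the origin recognition complex, and geminin (*Gmnn*) blocks CDT1 once an origin has been used. *Cdt1*, with the highest mean CPM of the group, was at 72.6, 79.9 and 79.8 CPM in Prep+/- and 20.0, 24.1 and 36.8 CPM in Prep-/- in M0. It was at 47.5, 55.8 and 50.4 CPM in Prep+/- and 21.9, 19.2 and 18.9 CPM in Prep-/- in M1, and at 70.8, 67.1 and 69.6 CPM in Prep+/- and 31.1, 29.2 and 42.6 CPM in Prep-/- in M2. The genotypes did not overlap, and the log2 difference was -1.52 ± 0.18 for M0, -1.36 ± 0.18 for M1 and -1.01 ± 0.18 for M2 (adjusted p = 7.69e-06, 1e-04 and 0.000587). *Orc1* had the largest M0 difference of the group and the lowest level per kilobase of all members, with counts down to 7 in a library. It read 4.83, 5.998 and 6.85 CPM in Prep+/- and 0.332, 1.13 and 1.25 CPM in Prep-/- in M0, 2.53, 3.32 and 4.54 CPM in Prep+/- and 0.728, 0.958 and 1.07 CPM in Prep-/- in M1, and 5.97, 7.59 and 5.44 CPM in Prep+/- and 0.453, 1.90 and 3.50 CPM in Prep-/- in M2. Its log2 difference was -2.69 ± 0.50 for M0, -1.90 ± 0.51 for M1 and -1.69 ± 0.46 for M2 (adjusted p = 0.000344, 0.00948 and 0.0133). Without the Prep-/- M2 library numbered 3 the M2 difference was -2.41 for *Orc1*, -3.27 for *Cdc6*, -3.55 for *Rrm2* and -3.29 for *Uhrf1*. The M2 call of *Orc1* was lost when only the libraries of that comparison were fitted (the highest adjusted p over its alternatives was 0.0796).

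*Orc2* departed from the group. It was at 21.5, 25.7 and 27.2 CPM in Prep+/- and 10.7, 11.5 and 9.55 CPM in Prep-/- in M0, at 27.0, 25.7 and 29.4 CPM in Prep+/- and 13.1, 19.6 and 19.4 CPM in Prep-/- in M1, and at 23.1, 24.1 and 29.3 CPM in Prep+/- and 17.7, 18.2 and 29.9 CPM in Prep-/- in M2. The genotypes were apart in M0 and M1 and overlapped in M2, where the Prep-/- library numbered 3 was above all Prep+/- libraries. The log2 difference was -1.23 ± 0.20 for M0, -0.65 ± 0.19 for M1 and -0.22 ± 0.19 for M2 (adjusted p = 0.000102, 0.0155 and 0.441), and the M1 call was lost without the Prep-/- library numbered 1. *Gmnn* was at 96.5, 101 and 88.5 CPM in Prep+/- and 19.7, 23.9 and 43.8 CPM in Prep-/- in M0, at 27.0, 40.5 and 35.9 CPM in Prep+/- and 23.5, 24.8 and 23.9 CPM in Prep-/- in M1, and at 75.1, 67.1 and 70.4 CPM in Prep+/- and 22.4, 23.7 and 25.7 CPM in Prep-/- in M2. The groups were apart in every state, narrowly so in M1, where its difference of -0.52 ± 0.21 was not called (adjusted p = 0.0681). In M0 and M2 *Gmnn* fell by 1.71 and 1.56 on the log2 scale. *Cdc6* and *Orc6* were called lower in every state, *Cdc6* with -2.09, -1.98 and -2.36 in M0, M1 and M2, and *Orc6* with -1.67, -1.16 and -1.33.

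Origin firing needs the CDC7 kinase with its activator DBF4, and the assembly of CDC45 and the GINS complex onto the helicase with the help of MCM10. All 8 of these genes were called lower in M0 and M2, and 5 in M1. *Cdc7* had the largest difference in M0. It was at 20.4, 18.6 and 17.8 CPM in Prep+/- and 1.33, 2.09 and 3.65 CPM in Prep-/- in M0, 5.28, 5.79 and 6.54 CPM in Prep+/- and 1.35, 2.07 and 3.31 CPM in Prep-/- in M1, and 12.5, 14.1 and 15.6 CPM in Prep+/- and 4.17, 5.25 and 7.29 CPM in Prep-/- in M2. The Prep-/- libraries were below the Prep+/- libraries throughout, and those of M2 stood above those of M0 and M1. The log2 difference was -3.001 ± 0.31 for M0, -1.38 ± 0.32 for M1 and -1.33 ± 0.29 for M2 (adjusted p = 2.54e-06, 0.00385 and 0.00315). *Gins4* had the highest mean level of the group, with 59.2, 58.5 and 54.8 CPM in Prep+/- and 31.8, 33.8 and 41.1 CPM in Prep-/- in M0, 29.9, 32.3 and 28.5 CPM in Prep+/- and 30.3, 32.6 and 32.4 CPM in Prep-/- in M1, and 49.4, 49.0 and 45.8 CPM in Prep+/- and 26.7, 31.8 and 31.1 CPM in Prep-/- in M2. Its genotypes overlapped in M1 and not in M0 or M2, and its log2 difference was -0.69 ± 0.10 for M0, 0.07 ± 0.11 for M1 and -0.69 ± 0.10 for M2 (adjusted p = 6.09e-05, 0.615 and 2e-04).

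*Gins1* was at 30.9, 30.7 and 26.2 CPM in Prep+/- and 3.13, 5.48 and 7.75 CPM in Prep-/- in M0, at 9.63, 12.4 and 11.8 CPM in Prep+/- and 6.29, 5.39 and 6.31 CPM in Prep-/- in M1, and at 27.5, 23.6 and 23.2 CPM in Prep+/- and 5.79, 8.50 and 8.72 CPM in Prep-/- in M2. *Gins3* was at 13.6, 16.1 and 14.1 CPM in Prep+/- and 3.56, 5.44 and 5.67 CPM in Prep-/- in M0, at 5.92, 6.41 and 5.58 CPM in Prep+/- and 6.70, 4.99 and 5.24 CPM in Prep-/- in M1, and at 9.42, 9.60 and 9.05 CPM in Prep+/- and 3.07, 4.25 and 4.99 CPM in Prep-/- in M2. In M1 the *Gins1* groups were apart and the *Gins3* groups overlapped, with log2 differences of -0.91 and -0.08. In M0 the differences were -2.42 and -1.57, and for *Gins2* they were -1.79 in M0, -1.02 in M1 and -1.26 in M2. *Mcm10* was at 55.0, 55.9 and 55.1 CPM in Prep+/- and 7.68, 14.2 and 19.1 CPM in Prep-/- in M0, at 15.1, 14.7 and 14.7 CPM in Prep+/- and 9.04, 8.72 and 9.16 CPM in Prep-/- in M1, and at 43.1, 39.8 and 37.6 CPM in Prep+/- and 5.74, 10.4 and 11.02 CPM in Prep-/- in M2. The *Mcm10* groups were apart in each state, with log2 differences of -2.02, -0.72 and -2.15. The M1 call of *Mcm10* (adjusted p = 0.0326) was lost when any 1 of the 6 M1 libraries was left out. *Cdc45* fell by 2.52, 1.51 and 2.08 on the log2 scale in M0, M1 and M2. *Dbf4* differed by -0.76 in M0, a call lost without the Prep-/- library numbered 1, and by -0.86 in M2 and -0.07 in M1, the last not called.

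The 9 polymerase and primase genes were all called lower in M0, 8 in M2 and 5 in M1. POLE and POLE2 belong to the leading-strand polymerase, POLD1 to POLD3 to the lagging-strand polymerase, and POLA1, POLA2 and the primase subunits PRIM1 and PRIM2 make the primers. *Pole* had the largest difference of the group, at 34.4, 38.4 and 40.5 CPM in Prep+/- and 3.56, 8.83 and 5.72 CPM in Prep-/- in M0. It read 11.5, 7.64 and 7.998 CPM in Prep+/- and 1.40, 4.64 and 2.39 CPM in Prep-/- in M1, and 21.4, 25.9 and 23.6 CPM in Prep+/- and 2.72, 4.95 and 6.76 CPM in Prep-/- in M2. All Prep-/- values were below all Prep+/- values of the same state, and the log2 difference was -2.64 ± 0.36 for M0, -1.68 ± 0.38 for M1 and -2.30 ± 0.36 for M2 (adjusted p = 2.43e-05, 0.00345 and 0.000251). *Pold3*, with the highest mean level, was at 54.3, 55.3 and 55.8 CPM in Prep+/- and 38.9, 36.1 and 35.1 CPM in Prep-/- in M0, 48.1, 43.0 and 42.2 CPM in Prep+/- and 50.9, 42.3 and 46.7 CPM in Prep-/- in M1, and 37.5, 44.8 and 36.6 CPM in Prep+/- and 32.5, 33.1 and 35.3 CPM in Prep-/- in M2. Its values spanned 32.5 to 55.8 CPM over the 18 libraries, the groups overlapped in M1, and the log2 difference was -0.59 ± 0.10 for M0, 0.07 ± 0.10 for M1 and -0.24 ± 0.10 for M2 (adjusted p = 0.000172, 0.605 and 0.0929). The M0 call of *Pold3* lay just past the fold threshold and was lost with other size factors and without the Prep-/- library numbered 2 or 3.

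*Pola1* was at 34.6, 44.4 and 50.7 CPM in Prep+/- and 9.11, 13.7 and 7.75 CPM in Prep-/- in M0, at 16.4, 10.8 and 10.7 CPM in Prep+/- and 6.76, 7.97 and 8.19 CPM in Prep-/- in M1, and at 34.3, 37.8 and 31.8 CPM in Prep+/- and 6.89, 8.196 and 10.7 CPM in Prep-/- in M2. *Pola2* was at 50.5, 56.7 and 51.3 CPM in Prep+/- and 17.7, 19.8 and 19.9 CPM in Prep-/- in M0, at 35.5, 30.1 and 34.7 CPM in Prep+/- and 25.1, 27.9 and 26.9 CPM in Prep-/- in M1, and at 46.5, 48.3 and 42.4 CPM in Prep+/- and 19.8, 22.4 and 21.3 CPM in Prep-/- in M2. The genotypes were apart for both genes in every state, but the M1 difference of *Pola2* (-0.33 ± 0.10, adjusted p = 0.0172) was under the fold threshold. For *Pola1* the M1 difference was -0.73 ± 0.23 (adjusted p = 0.0207), a call lost without the library numbered 1 of either genotype. In M0 the differences were -2.08 ± 0.22 and -1.46 ± 0.10, and in M2 -2.01 ± 0.23 and -1.11 ± 0.10. *Prim2* was at 32.9, 34.6 and 38.1 CPM in Prep+/- and 11.6, 15.2 and 14.5 CPM in Prep-/- in M0, at 16.1, 13.3 and 13.5 CPM in Prep+/- and 11.5, 10.9 and 9.72 CPM in Prep-/- in M1, and at 24.6, 30.5 and 27.9 CPM in Prep+/- and 11.8, 13.1 and 14.9 CPM in Prep-/- in M2. It did not overlap between genotypes, with log2 differences of -1.35, -0.42 and -1.06, the M1 value being under the fold threshold. Its partner *Prim1* was called lower in each state, with -1.78, -1.21 and -1.85.

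*Pold1*, the catalytic subunit, was at 74.1, 72.6 and 69.2 CPM in Prep+/- and 12.2, 17.4 and 20.6 CPM in Prep-/- in M0, at 30.1, 35.9 and 29.0 CPM in Prep+/- and 14.4, 18.4 and 15.7 CPM in Prep-/- in M1, and at 56.7, 56.4 and 52.3 CPM in Prep+/- and 14.8, 15.6 and 25.8 CPM in Prep-/- in M2. *Pold2* was at 29.4, 31.6 and 27.6 CPM in Prep+/- and 8.54, 7.66 and 7.89 CPM in Prep-/- in M0, at 15.8, 17.4 and 14.7 CPM in Prep+/- and 7.74, 12.4 and 11.8 CPM in Prep-/- in M1, and at 25.3, 22.4 and 25.1 CPM in Prep+/- and 7.998, 7.25 and 14.9 CPM in Prep-/- in M2. Both were apart between genotypes in every state. *Pold1* had log2 differences of -2.10, -0.97 and -1.55 in M0, M1 and M2, and *Pold2* of -1.88, -0.58 and -1.27, its M1 value lying just under the fold threshold and being called in 6 of 13 alternatives. *Pole2* was at 18.4, 20.2 and 15.9 CPM in Prep+/- and 5.12, 4.77 and 6.83 CPM in Prep-/- in M0, at 7.21, 7.36 and 7.33 CPM in Prep+/- and 3.90, 4.49 and 3.87 CPM in Prep-/- in M1, and at 17.99, 17.4 and 15.5 CPM in Prep+/- and 5.13, 5.65 and 7.57 CPM in Prep-/- in M2. Every Prep-/- library was below every Prep+/- library of the state, and the differences of -1.70, -0.84 and -1.47 were all called.

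The clamp, clamp loader and single-strand binding genes were a mixed group, with 6 of 8 called lower in M0, 3 in M1 and 5 in M2. RPA coats single-stranded DNA at the fork. *Rpa2* had the largest difference, at 86.3, 89.5 and 77.8 CPM in Prep+/- and 15.2, 15.99 and 31.8 CPM in Prep-/- in M0, 33.0, 36.7 and 36.0 CPM in Prep+/- and 11.8, 16.7 and 15.98 CPM in Prep-/- in M1, and 54.2, 49.2 and 50.0 CPM in Prep+/- and 10.2, 12.0 and 22.1 CPM in Prep-/- in M2. Its genotypes did not overlap, and the log2 difference was -2.01 ± 0.27 for M0, -1.25 ± 0.27 for M1 and -1.79 ± 0.27 for M2 (adjusted p = 2.36e-05, 0.0026 and 2e-04). *Rpa1* was at 229, 232 and 221 CPM in Prep+/- and 61.3, 62.1 and 90.8 CPM in Prep-/- in M0, 100.1, 97.0 and 91.4 CPM in Prep+/- and 61.2, 64.4 and 63.8 CPM in Prep-/- in M1, and 185, 188 and 173 CPM in Prep+/- and 59.2, 64.6 and 72.8 CPM in Prep-/- in M2. It also stayed apart in each state and was called lower in all 3, with log2 differences of -1.67 ± 0.13 for M0, -0.61 ± 0.13 for M1 and -1.47 ± 0.13 for M2.

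RFC1 to RFC5 form the loader that places PCNA on DNA. *Rfc1*, its largest subunit, was at 76.7, 84.01 and 84.3 CPM in Prep+/- and 48.8, 62.8 and 55.5 CPM in Prep-/- in M0, at 59.5, 53.2 and 53.2 CPM in Prep+/- and 56.8, 61.9 and 53.7 CPM in Prep-/- in M1, and at 73.6, 77.0 and 65.5 CPM in Prep+/- and 50.4, 54.7 and 45.7 CPM in Prep-/- in M2. The *Rfc1* groups overlapped in M1, and its differences of -0.55 ± 0.11 in M0 (adjusted p = 0.000556) and -0.52 ± 0.11 in M2 (adjusted p = 0.00223) were under the fold threshold. *Rfc2* was likewise not called in M0 (-0.45 ± 0.16, adjusted p = 0.0276), so these are the 2 members outside the M0 calls. *Rfc1* would be called in M0 without the Prep+/- library numbered 1 or the Prep-/- library numbered 2, and *Rfc2* without the Prep-/- library numbered 3. *Rfc3* was at 31.5, 33.2 and 29.6 CPM in Prep+/- and 15.2, 15.1 and 18.7 CPM in Prep-/- in M0, at 14.5, 17.6 and 17.3 CPM in Prep+/- and 17.1, 13.9 and 14.7 CPM in Prep-/- in M1, and at 26.4, 26.9 and 25.1 CPM in Prep+/- and 12.6, 12.4 and 15.3 CPM in Prep-/- in M2. It overlapped between genotypes in M1 only, with log2 differences of -0.95, -0.12 and -0.96. *Rfc5* was at 50.2, 49.0 and 49.2 CPM in Prep+/- and 16.7, 21.4 and 24.9 CPM in Prep-/- in M0, at 16.4, 14.4 and 15.7 CPM in Prep+/- and 11.3, 12.2 and 12.8 CPM in Prep-/- in M1, and at 49.4, 47.8 and 51.5 CPM in Prep+/- and 23.9, 26.4 and 33.1 CPM in Prep-/- in M2. Its groups were apart in each state, and it was called lower in M0 (-1.24) and M2 (-0.83) but not in M1 (-0.36, adjusted p = 0.0566). *Rfc4* was called lower in all 3 states, with -1.33, -0.73 and -1.23.

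FEN1 removes the flaps of Okazaki fragments and LIG1 seals them, and both genes were called lower in every state. *Fen1* was at 128, 130.2 and 115 CPM in Prep+/- and 28.1, 30.6 and 54.3 CPM in Prep-/- in M0, at 52.05, 59.6 and 55.2 CPM in Prep+/- and 30.0, 37.5 and 34.7 CPM in Prep-/- in M1, and at 115, 106 and 104 CPM in Prep+/- and 49.0, 49.4 and 57.9 CPM in Prep-/- in M2. *Lig1* was at 152, 157 and 148 CPM in Prep+/- and 18.9, 30.6 and 41.5 CPM in Prep-/- in M0, at 57.3, 52.8 and 49.3 CPM in Prep+/- and 20.6, 21.9 and 24.3 CPM in Prep-/- in M1, and at 96.8, 108 and 88.0 CPM in Prep+/- and 18.2, 25.2 and 24.7 CPM in Prep-/- in M2. Neither gene overlapped between genotypes. The log2 difference of *Fen1* was -1.73 ± 0.18 for M0, -0.71 ± 0.18 for M1 and -1.06 ± 0.18 for M2 (adjusted p = 3.13e-06, 0.00741 and 0.000498). That of *Lig1* was -2.33 ± 0.20 for M0, -1.25 ± 0.20 for M1 and -2.10 ± 0.20 for M2 (adjusted p = 6.59e-07, 0.00033 and 6.79e-06).

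Nucleotide supply held the gene with the largest M0 difference of all members. Ribonucleotide reductase, built of RRM1 and RRM2, makes deoxyribonucleotides, TYMS and TK1 provide thymidylate, and DUT removes dUTP. All 5 genes were called lower in M0 and M1 and 4 in M2. *Rrm2*, the subunit known to be made in S phase, was at 165, 192 and 204 CPM in Prep+/- and 7.78, 18.4 and 31.3 CPM in Prep-/- in M0, a 9.76-fold difference. It was at 40.9, 40.2 and 40.8 CPM in Prep+/- and 5.72, 14.8 and 13.03 CPM in Prep-/- in M1, and at 139, 131 and 136 CPM in Prep+/- and 7.80, 15.2 and 33.9 CPM in Prep-/- in M2. The genotypes were far apart, and within Prep-/- the library numbered 1 was lowest in each state. The log2 difference was -3.29 ± 0.47 for M0, -1.86 ± 0.47 for M1 and -2.83 ± 0.47 for M2 (adjusted p = 4.23e-05, 0.00616 and 0.000368). *Rrm1*, with the highest mean CPM of the group, was at 317, 329 and 354 CPM in Prep+/- and 44.5, 83.8 and 89.5 CPM in Prep-/- in M0, 83.7, 77.8 and 80.5 CPM in Prep+/- and 40.0, 47.1 and 44.2 CPM in Prep-/- in M1, and 238, 246 and 225 CPM in Prep+/- and 52.7, 80.8 and 77.0 CPM in Prep-/- in M2. Its groups did not overlap, with a log2 difference of -2.198 ± 0.20 for M0, -0.88 ± 0.20 for M1 and -1.75 ± 0.20 for M2 (adjusted p = 1e-06, 0.00323 and 2.23e-05). *Tk1* fell by 2.67, 1.65 and 2.81 on the log2 scale in M0, M1 and M2, and *Tyms* by 2.46, 1.68 and 2.21.

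The 4 genes of this group copy chromatin and DNA methylation behind the fork. UHRF1 reads hemimethylated DNA and brings in the maintenance methyltransferase DNMT1, and CHAF1A and CHAF1B are subunits of the histone chaperone CAF-1. *Uhrf1* fell 9.57-fold in M0, where it was at 107, 123 and 133 CPM in Prep+/- and 5.26, 12.6 and 20.1 CPM in Prep-/-. It was at 43.8, 40.4 and 37.9 CPM in Prep+/- and 6.50, 11.04 and 11.6 CPM in Prep-/- in M1, and at 77.0, 80.8 and 81.7 CPM in Prep+/- and 4.93, 11.2 and 23.7 CPM in Prep-/- in M2. Its groups were apart in each state, with a log2 difference of -3.26 ± 0.45 for M0, -2.07 ± 0.44 for M1 and -2.58 ± 0.44 for M2 (adjusted p = 2.69e-05, 0.00223 and 0.000455). *Chaf1a* was at 74.5, 74.6 and 74.3 CPM in Prep+/- and 10.4, 16.2 and 22.01 CPM in Prep-/- in M0, 29.0, 33.1 and 28.4 CPM in Prep+/- and 12.99, 17.1 and 15.8 CPM in Prep-/- in M1, and 61.5, 64.5 and 56.5 CPM in Prep+/- and 13.7, 18.5 and 24.6 CPM in Prep-/- in M2. It did not overlap either, and fell by 2.1998, 0.98 and 1.68 on the log2 scale.

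The E2F activators themselves had smaller differences in M0 than most of the set. *E2f1* was at 87.1, 90.7 and 82.1 CPM in Prep+/- and 44.2, 41.1 and 63.1 CPM in Prep-/- in M0, at 84.1, 94.7 and 83.6 CPM in Prep+/- and 59.1, 73.3 and 70.5 CPM in Prep-/- in M1, and at 77.1, 76.4 and 71.3 CPM in Prep+/- and 31.7, 36.7 and 43.9 CPM in Prep-/- in M2. *E2f2* was at 75.1, 78.1 and 78.03 CPM in Prep+/- and 23.8, 40.3 and 41.2 CPM in Prep-/- in M0, at 25.8, 22.2 and 21.8 CPM in Prep+/- and 18.9, 20.5 and 18.5 CPM in Prep-/- in M1, and at 46.2, 47.1 and 46.5 CPM in Prep+/- and 37.8, 44.1 and 19.9 CPM in Prep-/- in M2. The genotypes were apart for both genes in every state, though by little for *E2f2* in M1 and M2. The log2 difference of *E2f1* was -0.81 ± 0.15 for M0, -0.37 ± 0.15 for M1 and -1.002 ± 0.15 for M2 (adjusted p = 0.000322, 0.0581 and 0.000166), and that of *E2f2* was -1.14 ± 0.22 for M0, -0.27 ± 0.23 for M1 and -0.46 ± 0.22 for M2 (adjusted p = 0.000561, 0.366 and 0.144). Their M0 median of -0.97 compares with -1.97 over the 52 genes, a description that was not tested.

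TIPIN, partner of TIMELESS, and WDHD1, which ties the helicase to polymerase alpha, stabilise the fork, and both genes were called lower in each state. *Tipin* was at 42.1, 53.5 and 44.2 CPM in Prep+/- and 8.02, 11.1 and 15.6 CPM in Prep-/- in M0, at 20.6, 26.5 and 23.1 CPM in Prep+/- and 9.61, 12.4 and 11.2 CPM in Prep-/- in M1, and at 38.7, 29.3 and 34.5 CPM in Prep+/- and 8.40, 9.35 and 15.5 CPM in Prep-/- in M2. *Wdhd1* was at 32.5, 39.0 and 39.9 CPM in Prep+/- and 3.75, 8.66 and 8.12 CPM in Prep-/- in M0, at 11.2, 11.3 and 10.8 CPM in Prep+/- and 4.37, 6.86 and 3.82 CPM in Prep-/- in M1, and at 26.3, 29.7 and 24.9 CPM in Prep+/- and 7.70, 10.9 and 12.3 CPM in Prep-/- in M2. No genotype overlap was seen for either gene. The log2 difference was -2.01 ± 0.24 for M0, -1.07 ± 0.24 for M1 and -1.62 ± 0.23 for M2 for *Tipin* (adjusted p = 7.27e-06, 0.00273 and 0.000136). For *Wdhd1* it was -2.44 ± 0.26 for M0, -1.15 ± 0.27 for M1 and -1.39 ± 0.25 for M2 (adjusted p = 3.06e-06, 0.00394 and 0.000775).

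*Pcna*, *Dut*, *Dnmt1* and *Chaf1b* were lower in Prep-/- M0 cells but overlapped between genotypes in a stimulated state. The same held for *Orc2* in M2 and for *Dbf4*, *Gins3*, *Gins4*, *Pold3*, *Rfc1* and *Rfc3* in M1. *Pcna*, the sliding clamp and the most abundant member per kilobase in every group, was at 476, 520.1 and 538 CPM in Prep+/- and 129, 101 and 178 CPM in Prep-/- in M0. In M1 it read 262, 282 and 262 CPM in Prep+/- and 365, 256 and 314 CPM in Prep-/-, and in M2 497, 453 and 529 CPM in Prep+/- and 249, 232 and 652 CPM in Prep-/-. All Prep-/- libraries were below the Prep+/- libraries in M0, the groups overlapped in M1, and in M2 the library numbered 3 exceeded all Prep+/- libraries while the other two lay below them. The log2 difference was -1.91 ± 0.30 for M0, 0.21 ± 0.29 for M1 and -0.39 ± 0.29 for M2 (adjusted p = 9.8e-05, 0.593 and 0.367), with 95% intervals of -0.41 to 0.83 in M1 and -1.01 to 0.24 in M2. Without that library *Pcna* was called lower in M2, at -1.02. Within Prep-/- it rose 2.29-fold from M0 to M1 (adjusted p = 0.00261) and 2.78-fold from M0 to M2 (adjusted p = 0.000817), where in Prep+/- it fell 1.90-fold from M0 to M1 (adjusted p = 0.0147). Without the Prep-/- M2 library numbered 3 the rise to M2 was 1.75-fold. The processed pseudogene *Pcna-ps2* matches 51.4% of the transcript at 99.2% identity and was not a row of the count table.

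*Dut*, which encodes the dUTPase that keeps uracil out of DNA, followed the set in M0 and M1 and not in M2. It was at 53.6, 57.2 and 51.1 CPM in Prep+/- and 7.35, 6.70 and 17.7 CPM in Prep-/- in M0, at 14.0, 18.04 and 18.5 CPM in Prep+/- and 2.91, 5.70 and 5.55 CPM in Prep-/- in M1, and at 111, 102 and 104 CPM in Prep+/- and 177, 123 and 87.8 CPM in Prep-/- in M2. The genotypes were apart in M0 and M1 and overlapped in M2, where all 6 libraries were above every M0 and M1 library. The log2 difference was -2.35 ± 0.32 for M0, -1.83 ± 0.34 for M1 and 0.29 ± 0.30 for M2 (adjusted p = 2.64e-05, 0.00096 and 0.511). From M0 to M2 *Dut* rose 12.2-fold in Prep-/- (log2 3.61 ± 0.34, adjusted p = 3.24e-07) and 1.96-fold in Prep+/- (log2 0.97 ± 0.30, adjusted p = 0.0324), the latter call being lost when any 1 of its 6 libraries was left out. Without the Prep-/- M0 library numbered 3 the M0 difference was -2.95 and the Prep-/- rise to M2 was 18.4-fold, and without the Prep-/- M2 library numbered 1 the M2 difference was -0.0092. Among the Prep-/- M2 libraries *Dut* was highest in number 1 and lowest in number 3, where *Pcna* and *Rrm2* were highest in number 3.

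*Dnmt1* was at 179.5, 189.6 and 208 CPM in Prep+/- and 48.7, 74.9 and 57.1 CPM in Prep-/- in M0, at 89.7, 67.3 and 68.1 CPM in Prep+/- and 96.4, 90.8 and 76.8 CPM in Prep-/- in M1, and at 130.2, 149 and 131 CPM in Prep+/- and 54.8, 69.2 and 73.6 CPM in Prep-/- in M2. *Chaf1b* was at 39.7, 46.0 and 44.6 CPM in Prep+/- and 9.39, 11.8 and 11.8 CPM in Prep-/- in M0, at 23.5, 21.1 and 23.6 CPM in Prep+/- and 21.1, 21.98 and 24.2 CPM in Prep-/- in M1, and at 35.7, 37.0 and 31.7 CPM in Prep+/- and 11.4, 12.9 and 16.1 CPM in Prep-/- in M2. For both, the genotypes were apart in M0 and M2 and overlapped in M1. *Dnmt1* had log2 differences of -1.67 ± 0.16 for M0, 0.23 ± 0.16 for M1 and -1.05 ± 0.16 for M2 (adjusted p = 1.42e-06, 0.268 and 2e-04), and *Chaf1b* of -1.98 ± 0.13 for M0, -0.02 ± 0.13 for M1 and -1.37 ± 0.13 for M2 (adjusted p = 8.41e-08, 0.923 and 6.79e-06). The M1 difference of *Chaf1b* was 0.0116 without the Prep-/- library numbered 1. The 95% interval of the M1 difference was -0.11 to 0.57 for *Dnmt1* and -0.29 to 0.26 for *Chaf1b*. In M1 their partners were called lower, *Uhrf1* with -2.07 and *Chaf1a* with -0.98.

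**Figure D4:**
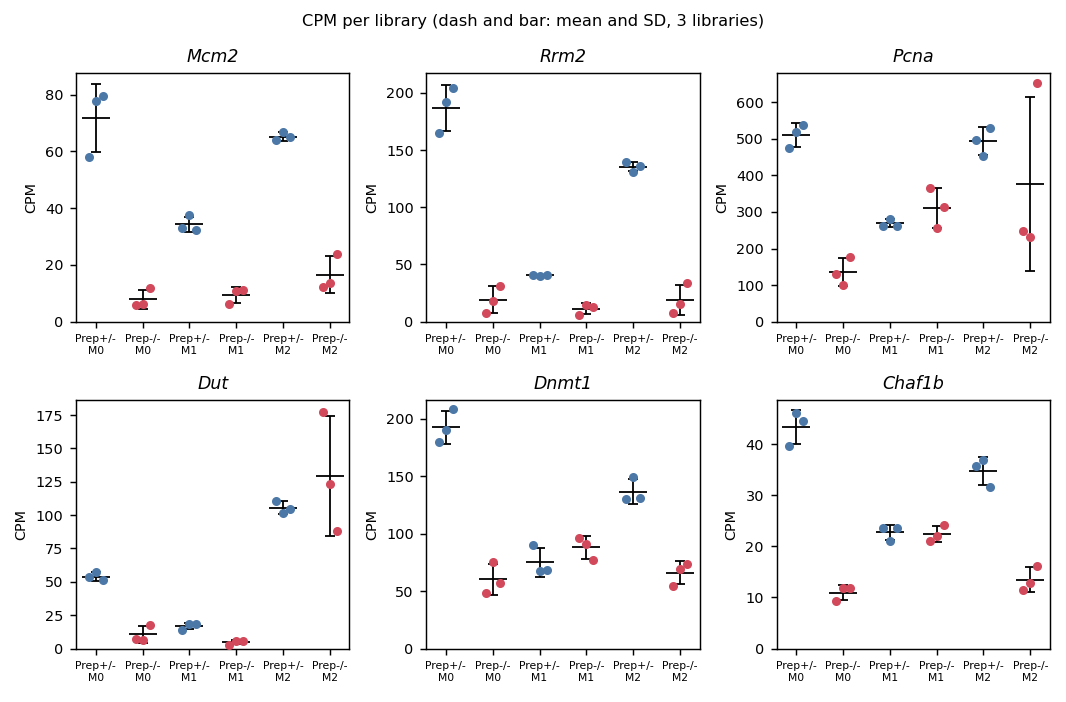
CPM of 6 genes in each library, with axes from 0, blue for Prep+/- and red for Prep-/-, and a dash and bar for mean and SD of 3 libraries. *Mcm2* and *Rrm2* are low in all Prep-/- groups, *Pcna*, *Dnmt1* and *Chaf1b* overlap between genotypes in M1, and *Dut* is highest in M2 in both genotypes.

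The response of the replication genes to LPS was next compared within each genotype. In Prep+/- cells 46 of the 52 genes were called lower in M1 than in M0 and 0 higher, where 20.9% and 16.7% of all tested genes were called, and the median log2 difference was -1.28. By DESeq2, and at an unadjusted p under 0.05 in edgeR, the count higher was also 0. In Prep-/- cells 12 were called lower and 3 higher, against 21.0% and 20.9% of all tested genes, with a median of -0.26, so the share of members called there was near or below that of all genes. All M1 libraries were below all M0 libraries for 50 genes in Prep+/- and for 9 in Prep-/-, against 34.1% and 28.0% of all tested genes. The largest falls in Prep+/- were those of *Tk1* (-2.53), *Rrm2* (-2.202), *Pole* (-2.06) and *Rrm1* (-2.05). *Tk1* was at 168, 169 and 154 CPM in M0 and 28.9, 28.8 and 27.4 CPM in M1 in Prep+/-. In Prep-/- it was at 11.2, 24.6 and 41.1 CPM in M0 and 4.37, 12.9 and 9.87 CPM in M1, and was called lower there too (-1.50, adjusted p = 0.00289). The members not called in Prep+/- were *Orc1* (-0.77), *Orc2* (0.14), *Cdc6* (-0.63), *E2f1* (0.01), and *Pold3* (-0.31) and *Rfc1* (-0.56), the last a pair that passed the adjusted p and not the fold.

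The 3 genes that rose from M0 to M1 in Prep-/- cells were *Pcna* (1.20 ± 0.30), *Chaf1b* (1.03 ± 0.13) and *Orc2* (0.71 ± 0.20), with adjusted p of 0.00261, 6.28e-06 and 0.00544. The 12 that fell were *Mcm7*, *Mcm10*, *Dbf4*, *Prim1*, *Pole*, *Rfc4*, *Rfc5*, *Tyms*, *Tk1*, *Rrm1*, *Dut* and *E2f2*. Of these *Mcm7* had the largest difference, -1.64, from 23.9, 39.8 and 56.7 CPM in M0 to 8.37, 14.6 and 15.7 CPM in M1. Its M1 libraries were all below its M0 libraries. *Mcm10* (-0.61 ± 0.25) was not called when any of the Prep-/- M1 libraries, or the Prep-/- M0 library numbered 2 or 3, was left out, nor when only the libraries of the comparison were fitted. With a replicate block, *Mcm10* was lost and *Rrm2* gained. *Pole* was at -1.72 without the Prep-/- M1 library numbered 2 and at -1.103 with it.

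Whether the knockout difference changed between states was tested by the difference of the log2 differences. From M0 to M1 the shift was positive for all 52 genes, at 0.11 to 2.12, and 30 were called higher and 0 lower, against 12.0% and 9.15% of all tested genes. No member was lower at an unadjusted p under 0.05 or by DESeq2, and glmTreat called 9 higher. The largest shifts were those of *Pcna* (2.12 ± 0.42, adjusted p = 0.00201), *Chaf1b* (1.97 ± 0.19, adjusted p = 7.34e-06), *Dnmt1* (1.90 ± 0.23, adjusted p = 4.31e-05), *Cdc7* (1.62 ± 0.44, adjusted p = 0.0145), *Gins1* (1.51 ± 0.33, adjusted p = 0.00391) and *Gins3* (1.49 ± 0.27, adjusted p = 0.00114). The 30 covered every role but the E2F activators, with 4 helicase subunits, 1 licensing gene, 5 firing genes, 7 polymerase genes, 5 of the clamp group, both Okazaki genes, 1 nucleotide gene, 3 chromatin genes and both fork protection genes. *Mcm7* (0.21), *Cdc6* (0.11) and *Cdt1* (0.17) had the smallest shifts, which turned to -0.05, -0.06 and -0.01 without the Prep-/- M0 library numbered 1. Since the interaction and the response of each genotype use the same libraries, their values are set side by side only.

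**Figure D5:**
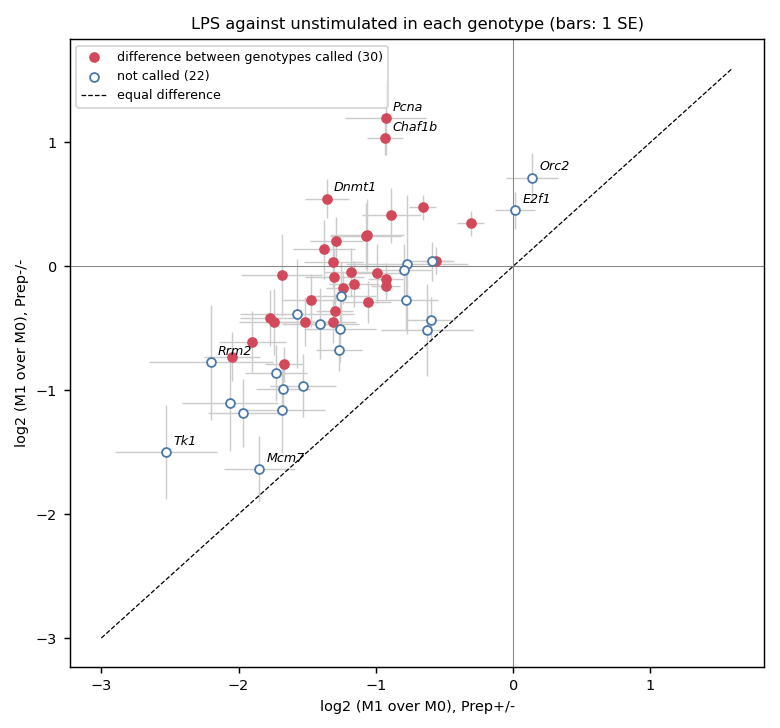
Log2 difference of M1 over M0 for each of the 52 genes in Prep+/- (horizontal) and Prep-/- (vertical), with bars of 1 SE and a dashed line where both are equal. All points lie above the line, most between -2.5 and -0.5 on the horizontal axis, and the 30 filled points are genes whose difference between genotypes was called.

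The response to IL-4 with IL-13 gave few calls. In Prep+/- cells 3 genes were called lower and 1 higher in M2 than in M0, against 6.77% and 6.09% of all tested genes, with a median of -0.33 over the set. The 3 were *E2f2* (-0.73 ± 0.22), *Lig1* (-0.64 ± 0.19) and *Gins3* (-0.64 ± 0.18), and the 1 was *Dut*. These calls were fragile, since leaving out single libraries reduced them to 0 or 1 lower and 0 higher, and a fit of the M0 and M2 Prep+/- libraries alone called 7 lower. For 38 genes all M2 libraries lay below all M0 libraries in Prep+/-, against 23.3% of all tested genes. In Prep-/- cells 5 were called higher and 1 lower, against 14.7% and 15.5%. The 5 were *Dut*, *Pcna*, *Cdc7* (1.24 ± 0.31), *Mcm2* (1.07 ± 0.28) and *Orc2* (1.05 ± 0.20), and the 1 was *Tk1* (-1.06 ± 0.37). Leaving out 1 library moved these counts to between 4 and 9 higher, with 9 without the Prep-/- M0 library numbered 3 and 8 without the Prep-/- M2 library numbered 1, and to between 0 and 4 lower.

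The knockout difference was shifted up in M2 against M0 for 5 genes and down for 0 (also 0 by DESeq2 and at an unadjusted p under 0.05 in edgeR), against 4.53% and 4.13% of all tested genes. They were *Dut* (2.64 ± 0.43, adjusted p = 0.00203), *Cdc7* (1.67 ± 0.42, adjusted p = 0.0207), *Pcna* (1.53 ± 0.42, adjusted p = 0.0307), *Orc2* (1.01 ± 0.27, adjusted p = 0.0288) and *Chaf1b* (0.62 ± 0.18, adjusted p = 0.0451). *Pcna* was at 0.88 without the Prep-/- M2 library numbered 3, and *Dut* at 3.25 without the Prep-/- M0 library numbered 3. Without 1 library the count ranged from 1 to 10, with 10 without the Prep-/- M0 library numbered 3 and 9 without the Prep-/- M2 library numbered 1. It was 2 without the Prep+/- M0 library numbered 3 or the Prep-/- M0 library numbered 1, and 1 without the Prep+/- M0 library numbered 2 or the Prep+/- M2 library numbered 1 or 2. Between M2 and M1 the difference was larger in M2 for 12 genes and smaller for 1, against 7.35% and 4.58% of all tested genes. The 12 were *Gmnn*, *Mcm10*, *Gins3*, *Gins4*, *Pola1*, *Pola2*, *Prim2*, *Rfc3*, *Rpa1*, *Rrm1*, *Dnmt1* and *Chaf1b*, with values from -1.42 (*Mcm10*) to -0.64 (*Prim2*), and the 1 was *Dut* (2.12 ± 0.45, adjusted p = 0.00622). Without the Prep-/- M2 library numbered 3 the count was 22, and glmTreat called 2.

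The rest of the pathway was read from lists around the members. Their counts stand beside the shares of all tested genes called in the same comparison, which for genotype were 17.2% lower and 15.4% higher for M0, 10.2% lower and 12.3% higher for M1, and 9.82% lower and 6.37% higher for M2. Of 37 other replication genes 26 were called lower and 2 higher in M0. The counts were 10 lower and 2 higher in M1, and 22 lower and 1 higher in M2. *Hells*, a chromatin remodeller, and *Clspn*, the checkpoint adaptor claspin, had the largest M0 differences (-3.19 ± 0.35 and -2.86 ± 0.34). In M1 these were *Dscc1*, part of an alternative clamp loader (-2.38 ± 0.43), and *Dctd*, dCMP deaminase (-1.68 ± 0.60), and in M2 *Hells* differed by -2.42 ± 0.34. Of 18 E2F, RB and MuvB regulators 9 were called lower in M0, 3 in M1 and 10 in M2. Those called higher numbered 0, 2 and 0. *Mybl2*, which activates late cell cycle genes, and *E2f7*, a repressor that is itself an E2F target, led in every state. *Mybl2* differed by -3.49 ± 0.34, -1.62 ± 0.34 and -2.69 ± 0.33 in M0, M1 and M2, and *E2f7* by -3.23 ± 0.31, -1.79 ± 0.36 and -2.998 ± 0.33.

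Of 18 genes for cyclins, their kinases, CDK inhibitors, the phosphatase CDC25A and the F-box protein SKP2, 12 were called lower and 1 higher in M0. They were 3 lower and 2 higher in M1, and 9 lower and 2 higher in M2. *Ccne2*, cyclin E2, had the largest difference in each state (-4.42 ± 0.55, -1.86 ± 0.51 and -3.20 ± 0.52). It was followed by *Ccnd1*, cyclin D1, in M0 (-4.16 ± 0.67) and M2 (-2.61 ± 0.62) and by *Ccna2*, cyclin A2, in M1 (-1.61 ± 0.40). Of 15 mitosis genes 13 were called lower in M0, 5 in M1 and 13 in M2. In each state 0 were called higher. *Top2a* (-1.98 ± 0.31) and *Bub1* (-1.87 ± 0.28) led in M0, *Birc5* (-1.28 ± 0.40) and *Plk1* (-1.27 ± 0.42) in M1, and *Top2a* (-1.84 ± 0.31) and *Aurkb* (-1.70 ± 0.24) in M2.

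The LPS response of these lists was read in the same way, where 20.9% of all tested genes fell and 16.7% rose in Prep+/-, and 21.0% fell and 20.9% rose in Prep-/-. All 15 mitosis genes were called lower in M1 than in M0 in both genotypes, with medians of -3.54 in Prep+/- and -2.54 in Prep-/-, where the 52 replication genes had medians of -1.28 and -0.26. *Cenpf* (-5.24 ± 0.40) and *Ccnb2* (-5.17 ± 0.37) led in Prep+/-, and *Ccnb2* (-5.36 ± 0.38) and *Cdc20* (-4.66 ± 0.33) in Prep-/-. Of the other replication genes 24 fell and 3 rose with LPS in Prep+/-, led by *Ticrr* (-2.62 ± 0.35) and *Asf1b* (-2.39 ± 0.26), and 9 fell and 8 rose in Prep-/-, led by *Dscc1* (-2.31 ± 0.43) and *Dck* (2.04 ± 0.17), shares near those of all genes. Of the E2F, RB and MuvB list 12 fell and 0 rose in Prep+/-, and 3 fell and 2 rose in Prep-/-, with *Foxm1* (-3.46 ± 0.37 and -2.53 ± 0.38) and *Tfdp2* (-3.07 ± 0.22 and -2.43 ± 0.22) leading in both. Of the cyclin and CDK inhibitor list 10 fell and 1 rose in Prep+/-, led by *Ccna2* (-3.71 ± 0.40) and *Cdkn1c* (-3.58 ± 0.42). In Prep-/- 4 fell and 8 rose, led by *Ccnd2*, cyclin D2 (4.14 ± 0.55), and *Ccna2* (-3.75 ± 0.42).

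With IL-4 and IL-13 fewer genes of each list were called than with LPS, in both genotypes. The lists held 37 other replication, 18 E2F, 18 cyclin and 15 mitosis genes. Of all tested genes, 6.77% fell and 6.09% rose in Prep+/-, and 15.5% fell and 14.7% rose in Prep-/-. In Prep+/- 1 other replication gene fell, *Atad5* (-0.76 ± 0.18), as did 3 of the E2F list, led by *E2f8* (-0.91 ± 0.28) and *E2f7* (-0.90 ± 0.28), 3 of the cyclin list, led by *Cdkn1c* (-1.75 ± 0.35) and *Cdkn1b* (-0.68 ± 0.18), and 0 of the mitosis list. In Prep-/- the counts lower and higher were 3 and 3 for other replication genes, led by *Rnaseh2b* (0.82 ± 0.15) and *Atad5* (-0.76 ± 0.20), and 3 and 1 for the E2F list, led by *Tfdp2* (-0.81 ± 0.20) and *Lin9* (-0.77 ± 0.15). They were 4 and 4 for the cyclin list, led by *Cdkn2b* (1.71 ± 0.54) and *Cdkn1b* (-1.62 ± 0.18), and 2 and 0 for the mitosis list, *Birc5* (-0.93 ± 0.37) and *Cdk1* (-0.61 ± 0.23).

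The shift of the knockout difference from M0 to M1 was called upward for 18 other replication genes, 9 of the E2F list, 11 of the cyclin list and 5 mitosis genes, and downward for 1, 0, 0 and 0, against 12.0% and 9.15% of all tested genes. The leading genes were *Mtbp* (2.52 ± 0.35), *Lin54* (1.97 ± 0.33) and *Rbl1* (1.88 ± 0.22), *Ccnd1* (3.77 ± 0.86) and *Ccnd2* (3.11 ± 0.69), and *Aurkb* (1.37 ± 0.34) and *Mki67* (1.32 ± 0.38). From M0 to M2 the upward calls were 2, 1, 2 and 0 (4.53% of all genes), led by *Dna2* (0.89 ± 0.22) and *Nasp* (0.68 ± 0.16), *Rbl1* (0.92 ± 0.22), and *Cdkn1c* (2.09 ± 0.49) and *Ccne1* (1.69 ± 0.41), with 3 downward calls in the cyclin list (4.13% of all genes). From M1 to M2 the downward calls were 8, 4, 7 and 4 and the upward calls 1, 0, 0 and 0, against 7.35% and 4.58% of all tested genes. There *Mtbp* (-1.96 ± 0.34) and *Timeless* (-1.92 ± 0.38), *Lin54* (-1.47 ± 0.33) and *Lin9* (-1.33 ± 0.22), *Cdkn2d* (-1.89 ± 0.30) and *Cdkn1a* (-1.50 ± 0.18), and *Aurkb* (-1.57 ± 0.34) and *Kif11* (-1.31 ± 0.41) led. Genes of these lists share libraries with the members and are given for their values only.

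All 52 members are annotated as protein-coding genes in GRCm39. Among those the results turn on, *Mcm2* lies at chr6:88860452-88875762, *Mcm6* at chr1:128259311-128287516, *Rrm2* at chr12:24757811-24764145, *Uhrf1* at chr17:56610275-56630489, *Pcna* at chr2:132091082-132095234, *Dut* at chr2:125089110-125100966, *Dnmt1* at chr9:20817945-20871184 and *Chaf1b* at chr16:93680768-93703003. Per kilobase of the union of annotated exons, *Orc1* had the lowest mean level and *Pcna* the highest in each of the 6 groups, from 1.03 to 213 CPM per kilobase around a median of 10.9 in Prep+/- M0, and from 0.157 to 56.6 around 3.64 in Prep-/- M0. Of the members, 28 overlap a gene on the opposite strand. The library kit keeps strand, but the strand setting of the counting was not given in the sources used here, so a share of their reads may belong to the partner gene. For 7 members a processed pseudogene matches at least 25% of the transcript at 90% identity or more, namely *Cdc6*, *Mcm4*, *Mcm7*, *Pcna*, *Rfc5*, *Tyms* and *Uhrf1*, and 0 of these pseudogenes had a row of their own.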

How the data were processed

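RNA was extracted with TRIzol from 18 BMDM cultures, and libraries were made with the TruSeq Stranded mRNA kit. The deposited values are raw read counts per gene, which the authors made with Trimmomatic (version 0.36), HISAT2 (version 2.2.1.0, GRCm39) and stringtie2. Counting settings were not given in the sources used here. Samples were grouped by the genotype and stimulation in their labels.

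Counts of all 18 libraries were fitted in edgeR (version 4.0.16, R 4.3.3) with 1 coefficient per group, filterByExpr, TMM scaling and the quasi-likelihood test. The p-values were adjusted by Benjamini-Hochberg over 12021 genes, and a call needed an adjusted p under 0.05 with a fold change over 1.5. SEs are the log2 difference divided by the root of F. The 10 comparisons were genotype within each state, M1 and M2 against M0 within each genotype, and the interactions. The fit was tested on simulated data with 200 genes changed, in the Prep-/- M0 group only, so the interactions were not covered. The members and lists were chosen with earlier results of these data known. Members with values in every library were, for each role, those with the highest mean CPM and the largest absolute genotype difference in any state. Every member with a called interaction was added. Context genes named were the 2 called with the largest difference per list, except 1 gene that is not reported here.

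Same-numbered libraries deviated together in some comparisons only. Correlations were 0.249, 0.255 and 0.462 for genotype in M2 and 0.201, 0.169 and 0.259 for M1 against M0 in Prep-/-. In the other comparisons they ran from -0.315 (genotype in M0) to 0.245 (M2 against M0 in Prep+/-). The labels do not say that a number marks a shared animal or day. Pairing for genotype in M2 and for M1 against M0 in Prep-/- therefore rests on their correlations alone. Alternatives were DESeq2 (version 1.42.0), RLE size factors, no filter, a filter of 1 CPM in 3 libraries, a fit of the compared libraries alone, a replicate block, adjusted p alone, glmTreat, and leaving out each library. Similar transcripts of other genes, at 90% identity or more, were found with blastn (version 2.17.0).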

Additional observations from a re-analysis of the deposited data

Results flagged for a closer look

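The knockout difference of the replication genes differed between states by the interaction test of edgeR. From M0 to M1 it was shifted up for 30 members (57.7%), against 12.0% of all tested genes. Among those of highest level or largest difference in their role, the shift on the log2 scale was 2.12 for *Pcna*, 1.90 for *Dnmt1*, 1.62 for *Cdc7*, 1.35 for *Mcm6*, 1.32 for *Mcm2* and 1.32 for *Rrm1*. It was 1.29 for *Wdhd1*, 1.07 for *Lig1*, 1.02 for *Fen1*, 0.94 for *Tipin*, 0.76 for *Gins4* and 0.66 for *Pold3*. The call of *Tipin* held in 6 of 19 alternatives.

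From M0 to M2 the shift was called upward for 5 members (9.6%), including *Cdc7* (1.67) and *Pcna* (1.53), against 4.53% of all tested genes. The *Pcna* call held in 11 of 19 alternatives. From M1 to M2 it was called upward for 1 member, *Dut*, and downward for 12, including *Dnmt1* (-1.28), *Rrm1* (-0.87) and *Gins4* (-0.76). These were 1.9% and 23.1% of the members, against 4.58% and 7.35% of all tested genes. The *Rrm1* call held in 7 of 19 alternatives.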

How the results depend on the processing

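With 3 libraries a group, small differences near the fold of 1.5 were not resolved, and *Orc1*, with as few as 7 counts in a library, had the largest SE for genotype in M0 and M1. Most members kept their direction and call for genotype in M0 and M2. With glmTreat the counts were 15 lower for genotype in M1, 4 lower for M1 against M0 in Prep-/-, 0 higher and 0 lower for M2 against M0 in Prep+/-, and 0 lower for M2 against M0 in Prep-/-. For the interactions it gave 9 higher from M0 to M1, 1 higher from M0 to M2 and 2 lower from M1 to M2. With the adjusted p alone there were 7 higher for M1 against M0 in Prep-/-, 5 lower for M2 against M0 in Prep+/- and 2 lower in Prep-/-. DESeq2 gave 5 lower for M2 against M0 in Prep+/-, 2 lower in Prep-/-, and 8 higher for the M0 to M2 interaction. A fit of the compared libraries alone gave 7 lower for M2 against M0 in Prep+/-, 3 higher and 0 lower in Prep-/-, and 2 higher for the M0 to M2 interaction. The cause of these differences was not tested, except that glmTreat sets a stricter threshold and the adjusted p alone drops the fold.

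With a replicate block the paired fit gave 45 members lower for genotype in M2, and 3 higher and 12 lower for M1 against M0 in Prep-/-. These counts are as without it, but in the latter *Mcm10* was lost and *Rrm2* gained. Elsewhere, where the libraries may share only a number, it gave 7 lower and 1 higher for M2 against M0 in Prep+/-, and 0 lower in Prep-/-, and changed no other count by over 1.5 times.

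Leaving out 1 library gave 49 to 51 lower for genotype in M0, 32 to 35 in M1 and 45 to 46 in M2. It gave 44 to 46 lower for M1 against M0 in Prep+/-, 2 to 4 higher and 10 to 16 lower in Prep-/-, 0 to 1 lower and 0 higher for M2 against M0 in Prep+/-, and 4 to 9 higher and 0 to 4 lower in Prep-/-. The interactions ranged over 24 to 42 higher from M0 to M1, 1 to 10 higher and 0 to 1 lower from M0 to M2, and 9 to 22 lower with 1 higher from M1 to M2. For M2 against M0 in Prep-/- the lower count was 3 without the Prep-/- M0 library 1 or M2 library 2, 4 without M2 library 3, and 0 without M0 library 3 or M2 library 1. The 1 lower from M0 to M2 came without the Prep-/- M2 library 3. *Pold3* for genotype in M1, 0.07 on the log2 scale, ranged from -0.0088, a reversed sign without the Prep-/- library 1, to 0.125, and was called in none of these. For genotype, *Rfc1* and *Chaf1b* in M1 and *Dut* in M2 also changed sign under an alternative, and 0 called members did so in any of the 10 comparisons. Without TMM factors the summed level was 5546 CPM in Prep+/- M0, 1690 in Prep+/- M1, 1176 in Prep-/- M1 and 4140 in Prep+/- M2, and the mean log2 level was 6.22, 4.54 and 5.81 in Prep+/- M0, M1 and M2.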
